A study of Mus musculus with 17 samples.

Results

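The 6 genes of the retinoic acid receptors were followed through the H3K27ac loops of retinoic acid-treated mouse embryoid bodies. Members were Rara, Rarb and Rarg, which encode RARα, RARβ and RARγ, and Rxra, Rxrb and Rxrg, which encode RXRα, RXRβ and RXRγ. They are 6 of 22367 annotated protein-coding genes. A loop was assigned to a receptor when an anchor of it lay within 5 kb of any annotated start site (TSS) of that gene. This rule gave 1028 loops of 1211657, resting on 26 anchors of 216081 in the windows. A loop is a pair of genomic anchors joined by at least 1 sequenced read pair, and its value is the number of such read pairs.

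H3K27ac HiChIP, which captures contacts of chromatin carrying the acetylated histone mark of active promoters and enhancers, was available for 17 libraries. All came from mouse embryonic stem cells that had been aggregated as embryoid bodies by hanging drop and kept in 0.5 µM retinoic acid for 4 days, so that both groups carry the same treatment and neither is untreated. Bulk (12 libraries) refers to unsorted cells, and cluster2 (5 libraries) to cells that the study sorted by flow cytometry as double positive for EpCAM and CD38 to obtain its subpopulation 2; these are called double positive below. Several sorting runs were needed for enough cells, and whether each library is a run of its own is not stated. The study's mixture stems from a single cell line, and bulk contains double positive cells too. Bulk libraries held 65178 to 241202 read pairs (median 135124.5) and double positive libraries 50508 to 118179 (median 85966). The anchors that the groups used differed in number: 15074 were used by both groups, 200999 by bulk alone and 8 by double positive loops alone. Whether an anchor without a double positive read pair was ever offered to those libraries is not shown by loop lists, so no fold change is given for such genes. Among marker genes fixed from the study's text, Gata4 and Foxa2 of the endoderm were higher in double positive libraries (log2 fold change 1.73 and 1.51), Sox17 (-0.57) and Gata6 (0.02) did not pass the test, and all 5 tested neural genes were lower, from Lhx1 (-3.36) and Pax6 (-3.17) to Pou3f2 (-5.15). The sorting markers Epcam (1.05, adjusted p = 0.107) and Cd38 (0.65, adjusted p = 0.195) did not pass. A drop in read pairs here cannot tell fewer cells with a loop from fewer contacts per cell.

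RARs are transcription factors that bind retinoic acid directly, and they work on DNA as heterodimers with an RXR. The pair sits on repeats of the hexamer AGGTCA and its variants, holds corepressors without ligand and recruits coactivators when ligand binds. RXRs also pair with thyroid hormone, vitamin D, PPAR and LXR receptors. In embryonal cells the Rarb gene is itself a classic retinoic acid target, through such an element at its downstream promoter, and RARα has a related one at the promoter of its second isoform.

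Repeats of 2 hexamers were searched in the mm9 reference sequence to show where such elements lie relative to the loops. Each hexamer could be the consensus AGGTCA, its variant form AGTTCA, the further form GGGTCA or lastly GGTTCA. Both had to lie on the same strand with 1, 2 or 5 bases between them (DR1, DR2 and DR5), and both strands were read. In the 250 bases upstream of the 37 receptor start sites there was 1 such repeat, a DR5 ahead of Rarb-202, which is 2.7% of these windows. Among 69965 windows of all protein-coding start sites 0.359% held any such repeat and 0.07% held a DR5. The windows of 1 gene overlap each other. The upstream window of Rarb-202, mm9 chr14:17407987-17408236 on the minus strand, is shown because it lies in the most contacted Rarb anchor; capitals mark the hexamers.
Rarb-202 upstream: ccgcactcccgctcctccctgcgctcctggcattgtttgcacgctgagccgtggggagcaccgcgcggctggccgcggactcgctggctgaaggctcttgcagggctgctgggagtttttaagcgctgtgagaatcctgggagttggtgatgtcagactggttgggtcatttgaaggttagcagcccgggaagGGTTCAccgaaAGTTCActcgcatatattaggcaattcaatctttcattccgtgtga

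The 26 receptor anchors held 3 repeats in 3 anchors (11.5%), against 6.06% of all anchors; 2 of the 3 were DR5, in 7.69% of receptor anchors against 1.28% of all anchors. Anchors of like width are the closer comparison. Of 2695 anchors whose width was within 10% of that of the Rara anchor concerned, 2.86% held a DR5, and of 2001 anchors as wide as the Rarb anchor, 2.95% did. The 3 elements are printed with their hexamers in capitals. The Rarb element (mm9 chr14:17408027-17408043, minus strand) was centred 49 bases upstream of the Rarb-202 start. The Rara element (chr11:98821322-98821338, plus strand) was centred 396 bases upstream of the Rara-004 start. The repeat in the anchor upstream of Rxrb (chr17:34164825-34164837, plus strand) was a DR1, and 12.8% of 4104 anchors of that width held a repeat of any of the 3 kinds.
Rarb DR5: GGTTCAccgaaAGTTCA
Rara DR5: AGTTCAgcaagAGTTCA
Rxrb DR1: AGGTCAgAGGTCA
The stretch around the Rara element, chr11:98821206-98821455 on the plus strand, is shown because its anchor takes part in 5 of the 9 Rara loops tested below.
Rara-004 upstream: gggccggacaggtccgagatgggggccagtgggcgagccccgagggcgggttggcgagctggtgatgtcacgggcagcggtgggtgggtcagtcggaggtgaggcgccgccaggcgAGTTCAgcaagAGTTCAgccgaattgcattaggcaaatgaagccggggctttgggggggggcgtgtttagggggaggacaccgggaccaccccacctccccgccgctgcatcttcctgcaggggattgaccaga
A match in these windows is a description of the letters and says nothing of binding.

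Read pairs per gene were called different between the groups for 5 of the 6 receptors. Rxrb and Rarg were higher in double positive libraries, Rxra was lower, Rarb and Rxrg had no double positive read pair, and Rara did not pass the test. Rarb and Rxrg entered the test through bulk read pairs alone. Their calls cannot tell fewer contacts from anchors that were never offered to double positive libraries. The test was edgeR's quasi-likelihood test with Benjamini-Hochberg adjustment over 14115 genes, of which 20.6% were called higher and 42.8% lower. Calls at that rate are common, so that 2 higher and 3 lower of 6 is not a count particular to the receptors. Levels below are CPM, read pairs relative to the library total after TMM scaling, which sets libraries to a common level by trimming extreme features. These factors were far apart, 0.572 to 0.800 in bulk and 2.32 to 2.51 in double positive libraries. With library size alone the median log2 fold change of all genes moved from -0.52 to 1.21, and the share called higher from 20.6% to 55.3% (lower, from 42.8% to 26.2%). The gene-level fold changes of Rara, Rarg, Rxra and Rxrb are therefore also given relative to the median of all genes. Other fold changes are not. That median includes 3058 genes without a double positive read pair. Over the 11057 tested genes with one it was -0.0052 under TMM scaling. Relative to such genes the TMM-scaled fold changes stay nearly as they are.

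**Figure D1:**
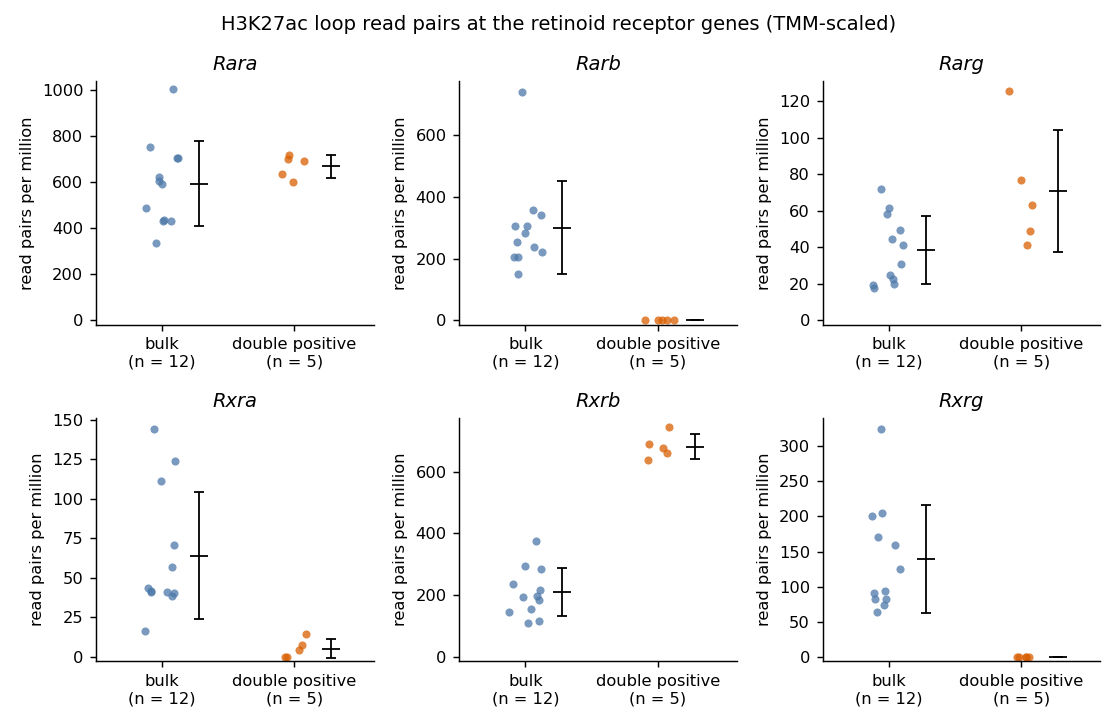
CPM after TMM scaling (y axis, separate scale for each gene) in each of 12 bulk (blue) and 5 double positive (orange) libraries; the cross and bars are mean ± SD. The groups stand apart for Rarb, Rxra, Rxrb and Rxrg, and overlap for Rara and Rarg. How many of all genes, anchors or loops have groups that stand apart was not counted, so that this is not read as particular to the receptors.

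Rara encodes the most broadly expressed RAR. Its bulk levels ran from 336 over a median of 597 to 1005 CPM. Double positive libraries 1 to 5 held 719, 689, 700, 599 and 633. All 5 double positive values lay inside the bulk range, and their mean was 668 ± 50.02 (SD, n = 5) against 592 ± 185 (SD, n = 12). The log2 fold change was 0.15 ± 0.19 (SE; edgeR adjusted p = 0.496), which is 0.67 above the median of all genes. From the median of genes with a double positive read pair, -0.0052, it differed by less than its SE. With library size alone the log2 fold change of Rara was 1.94 ± 0.21 (edgeR adjusted p = 7.1e-11). This was 0.72 above the median of all genes under that scaling, and the groups did not overlap. The call for Rara thus depended on the scaling. One of its anchors, chr11:98782752-98784482, also lies in a window of Cdc6. Its 48 bulk and 0 double positive read pairs cannot be told apart between the genes.

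Rarb encodes the RAR that retinoic acid induces. Its read pairs in bulk libraries 1 to 12 were 65, 59, 40, 29, 14, 16, 22, 33, 32, 17, 9 and 10, and 0 in each double positive library. Every bulk library was above every double positive one (edgeR adjusted p = 1.5e-12), and 346 read pairs in bulk stood against 0. As bulk read pairs alone brought Rarb into the test, this p-value does not show that contacts were lost. Whether the Rarb anchors were offered to double positive libraries was not tested. Bulk library 1 was the highest at 739 CPM, against 149 to 357 in the other 11. Of 298 tested genes with at least 346 bulk read pairs, 8 (2.68%) had no double positive read pair, whereas this held for 21.7% of all genes tested.

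Rarg encodes the RAR that is prominent in early embryo and skin. Double positive libraries held 76.6, 48.8, 126, 63.1 and 41.1 CPM. Bulk libraries ran from 17.8 over a median of 36.3 to 72.1, so that the groups overlapped. The log2 fold change was 0.92 ± 0.35 (SE; edgeR adjusted p = 0.0215), 1.44 above the median of all genes. These levels rest on 40 bulk and 65 double positive read pairs. Without double positive library 3 the change was 0.65 (edgeR adjusted p = 0.127) and without library 1 it was 0.87 (adjusted p = 0.0564), so that the call rests on those libraries.

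Rxra encodes the RXR that partners RARs in most embryonic tissues. Double positive libraries held 2, 3, 0, 0 and 1 read pairs, or 7.30, 14.7, 0, 0 and 4.11 CPM. Bulk ran from 16.5 over 42.7 to 144. The groups just failed to overlap, and without TMM scaling they overlapped. The log2 fold change was -3.16 ± 0.55 (SE; edgeR adjusted p = 8.3e-06), or -2.65 relative to all genes. With library size alone it was -1.51 ± 0.60 (adjusted p = 0.0202).

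Rxrb encodes the RXR that lies in the major histocompatibility region of chromosome 17. Double positive libraries held 679, 689, 660, 639 and 744 CPM. Bulk libraries ran from 111 over 197 to 375, below all double positive values. The log2 fold change was 1.67 ± 0.20 (SE; edgeR adjusted p = 9.3e-09), 2.19 above the median of all genes, and it kept its direction and call under every alternative in which it was fitted. Its windows are shared with Ring1, H2-Ke6, Slc39a7 and Col11a2, whose loops cannot be told from its own.

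Rxrg encodes the RXR known from muscle and brain. Bulk libraries held 8, 24, 10, 9, 14, 9, 17, 9, 18, 18, 5 and 4 read pairs, and double positive libraries 0. The groups did not overlap (edgeR adjusted p = 6.8e-10). This p-value has the same limit as that of Rarb, since Rxrg too entered the test through bulk read pairs alone. Rxrg lies on distal chromosome 1, from 130 Mb on, where bulk read pairs are in excess. Of 496 tested genes there, 457 (92.1%) were called lower by edgeR, and 240 (48.4%) had no double positive read pair. Their median bulk level was 105 CPM against 48.4 for all genes. The bulk level of Rxrg, 139 ± 76.8 (SD, n = 12), was above 60.9% of the genes of its own region and above 89.4% of the others. Whether the Rxrg difference is that of its region was not tested.

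Per kb of anchor the bulk levels ranked Rara (25.7 ± 8.03), Rxrb (20.03 ± 7.48), Rarb (15.4 ± 7.72), Rxrg (12.8 ± 7.04), Rxra (6.17 ± 3.88) and Rarg (3.78 ± 1.84 CPM per kb, SD, n = 12). Neighbours in this order differed by less than the larger of their SDs. In double positive libraries the order was Rxrb (65.2 ± 3.77), Rara (29.0 ± 2.17), Rarg (6.96 ± 3.28) and Rxra (0.501 ± 0.587, n = 5), with Rarb and Rxrg at 0. There the steps down to Rxra exceeded the SD of both genes, and Rxra differed from 0 by less than its SD. These levels are per kb of anchor sequence and are a description, with no test.

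**Figure D2:**
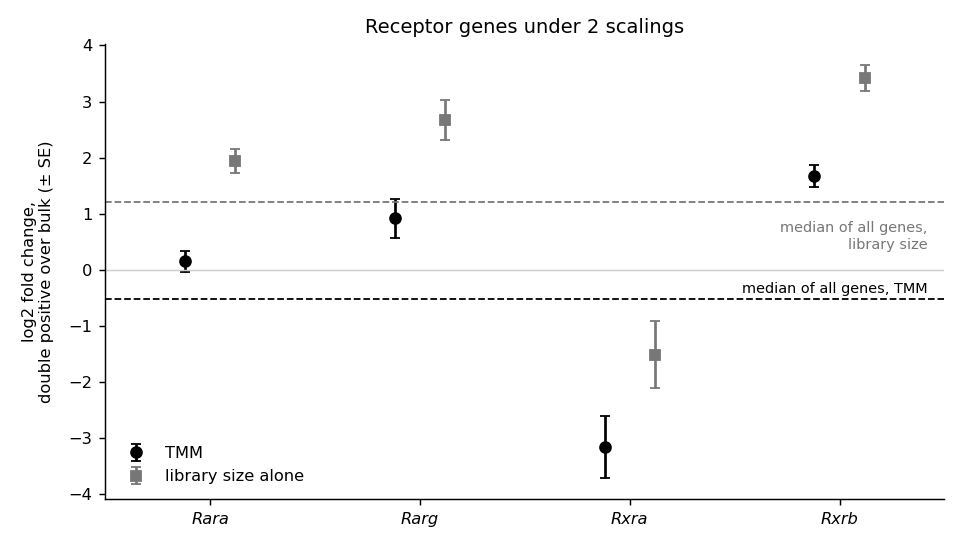
Log2 fold change of read pairs per gene, double positive over bulk, for the 4 receptors with read pairs in both groups (± SE); circles are TMM-scaled fits, squares use library size alone, and dashed lines are the medians of all 14115 genes. Rxrb and Rarg lay above 0 and Rxra below 0 under both scalings, whereas Rara moved from 0.15 to 1.94.

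The genes with the levels most like each receptor over the 17 libraries were found by the mean absolute difference of log2(CPM + 1), leaving out genes that share an anchor with it. They were 1600002K03Rik (0.36) and Src (0.37) for Rara, Rasal2 (0.30) and Kctd3 (0.32) for Rarb, and Mettl7a2 (0.42) and Serpinb6a (0.43) for Rarg. For the RXRs they were Ppa2 (0.48) and Slc6a5 (0.53) for Rxra, Vamp2 (0.26) and Apom (0.32) for Rxrb, and Dysf (0.28) and Vmn1r1 (0.30) for Rxrg. The genes nearest to Rarb and Rxrg likewise had no double positive read pair. The measure itself favours this, since a receptor without such read pairs is closest to genes that also lack them. Rasal2, Kctd3 and Vmn1r1 lie on distal chromosome 1.

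The anchors show where in each gene the read pairs fell. Of the 26 anchors, 9 were used by double positive loops: 4 at Rara, 3 at Rxrb and 1 each at Rarg and Rxra. After the filter (at least 20 read pairs and at least 5 libraries), 18 were tested and 8 were too sparse. By edgeR, 6 of the 18 were higher in double positive libraries and 11 lower, against 10.5% higher and 75.5% lower of 43452 anchors tested. The median log2 fold change of those anchors was -4.38, which includes anchors without a double positive read pair. With loops limited to anchors used by both groups, the median was 0.53 over 12510 anchors. The Rara anchor called lower and used by double positive loops changed by -1.22 in that fit. The Rxra anchor used by double positive loops could not be fitted there. Of the 11 receptor anchors called lower in the main fit, 9 had no double positive read pair, and such anchors passed the filter through bulk alone. The 8 anchors that barely met the window rule, with their edge 3.31 to 4.96 kb from a start site, held 6 to 66 bulk read pairs, and only the Rara anchor at 4.92 kb held double positive ones (194). The 5 nearest outside it, at 6.39 to 7.66 kb, held 3 to 35 bulk read pairs and 0 double positive.

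**Figure D3:**
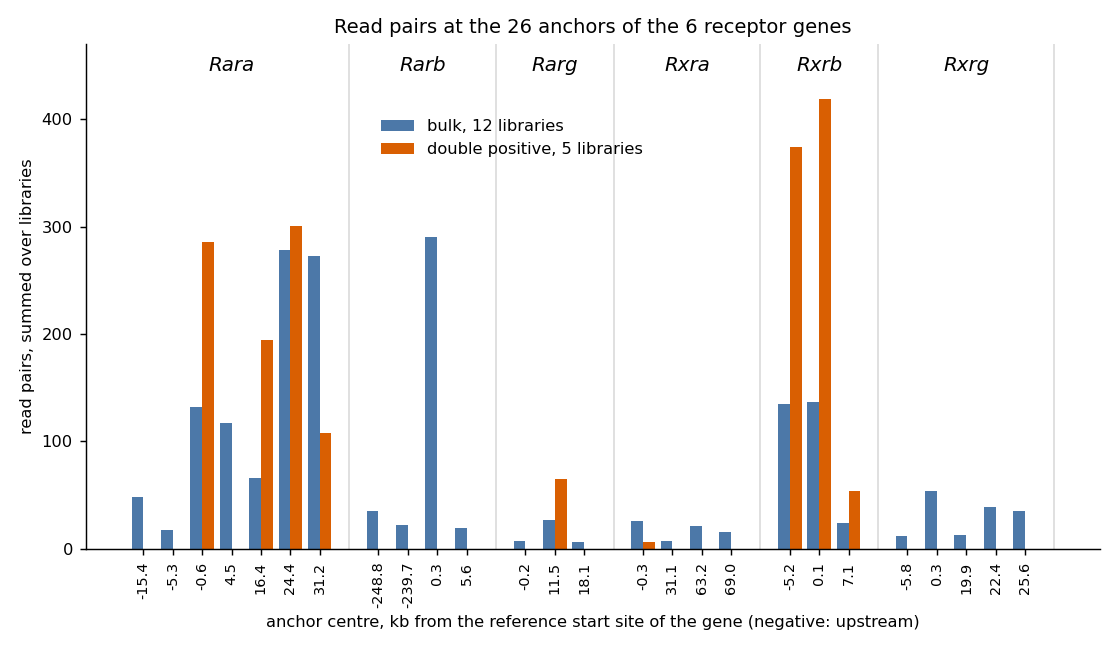
Read pairs summed over 12 bulk (blue) and 5 double positive (orange) libraries at each of the 26 anchors, placed by the distance of the anchor's centre from a reference start site of its gene (Rara-001, Rarb-202, Rarg-001, Rxra-001, Rxrb-001, Rxrg-001). At Rara, 4 anchors carry double positive read pairs and 3 do not; at Rarb and Rxrg none does.

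Under TMM scaling the Rara anchors moved in different directions, while the gene total did not pass the test. The anchor over the Rara-001, Rara-002 and Rara-005 starts (chr11:98796575-98800276, exon) rose from 109 ± 43.0 (SD, n = 12) to 311 ± 25.2 (n = 5) CPM, log2 fold change 1.45 ± 0.25 (edgeR adjusted p = 1.1e-06). Its lowest double positive value, 269.6, was above its highest bulk value, 172. The intronic anchor chr11:98814131-98816803 rose by 1.86 ± 0.28 on the log2 scale (adjusted p = 9.1e-08), from 53.7 ± 28.1 to 210.3 ± 30.1, again with no overlap. The anchor that holds the Rara-004 and Rara-202 starts and the DR5 (chr11:98820244-98826637, exon) had 222 ± 97.5 in bulk and 324 ± 52.0 in double positive libraries, which overlapped (0.50 ± 0.25, adjusted p = 0.0638). It was called higher with library size alone (2.17, adjusted p = 7.2e-12) and without double positive library 4 (0.58, adjusted p = 0.0465). The anchor after it (chr11:98828521-98831947, exon) fell by 0.94 on the log2 scale (SE 0.29, adjusted p = 0.00273), from 221 ± 99.0 to 119 ± 36.2, with overlapping groups, and with library size alone it turned to 0.73 (adjusted p = 0.0138). Between them, the intronic anchor chr11:98801967-98805113 had 117 bulk and 0 double positive read pairs. The difference between these anchors was not itself tested.

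At Rarb, 290 of the 346 bulk read pairs fell on the anchor over the Rarb-202 start and its DR5 (chr14:17404335-17411073, exon), at 249 ± 136 CPM and with a bulk minimum of 105. The anchors flanking the upstream start of Rarb-201 and Rarb-203 held 22 (chr14:17645406-17649898, intron) and 35 (chr14:17653287-17660224, outside the gene) bulk read pairs. No anchor covered that upstream start itself. Of 47 anchors inside the transcribed region of Rarb, 1 was used by double positive loops (chr14:17544685-17548477, 139 kb upstream of the Rarb-202 start within the long isoforms). It had 8 double positive read pairs in 4 libraries, in 3 loops of 349 to 1525 kb to other places, and 20 bulk read pairs in 9 libraries with the Rarb windows. Within 100 kb of the Rarb start sites double positive loops used 1 of 52 anchors (1.92%), and within 500 kb 4 of 116 (3.45%). For Rxrg the counts were 0 of 28 and 6 of 127 (4.72%), and for Rxra 1 of 23 (4.35%) and 11 of 110. For Rara they were 9 of 31 (29.0%), for Rarg 10 of 30 (33.3%) and for Rxrb 16 of 23 (69.6%) within 100 kb. Over all 216081 anchors, 15074 were used by both groups and 8 by double positive loops alone. Within 100 kb few anchors near Rarb, Rxrg and Rxra were thus used by double positive loops. Within 500 kb the share at Rxra was 10%, above those at Rarb and Rxrg. Of these genes only Rxra had double positive read pairs. The high shares within 100 kb were those at Rara, Rarg and Rxrb. How much of the difference is a matter of which anchors were called was not tested.

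At Rarg the read pairs of double positive libraries fell wholly on the anchor of the downstream start sites (chr15:102073598-102079372, exon, Rarg-002, Rarg-004 and Rarg-005). It had 23.98 ± 13.7 in bulk and 75.5 ± 33.7 in double positive libraries (log2 fold change 1.58 ± 0.39, edgeR adjusted p = 2.0e-04), and the highest bulk value, 45.1, just exceeded the lowest double positive one, 44.9. The anchor over the Rarg-001 and Rarg-006 starts (chr15:102086773-102089451) had 7 bulk and 0 double positive read pairs, too few for a test. At Rxra all 6 double positive read pairs fell on the anchor over Rxra-001 (chr2:27530780-27533990, exon), with 26 in bulk (-1.70 ± 0.70, edgeR adjusted p = 0.0209). With library size alone its change was -0.17 and not called (adjusted p = 0.826). The anchor of the Rxra-005 start (chr2:27594738-27597154) had 21 bulk and 0 double positive read pairs.

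All 3 Rxrb anchors rose under TMM scaling of all loops. The anchor over 6 Rxrb start sites (chr17:34167657-34170097, exon) went from 113 ± 65.2 to 463 ± 43.5 CPM (1.97 ± 0.26, edgeR adjusted p = 5.9e-09). Its upstream neighbour (chr17:34160630-34166545), which also covers windows of Ring1, H2-Ke6 and Slc39a7 and holds the DR1, went from 111 ± 53.6 to 394 ± 68.8 (1.78 ± 0.25, adjusted p = 3.4e-08). Neither overlapped between the groups. The anchor at the 3′ side (chr17:34174843-34176944), shared with the collagen gene Col11a2, rose by 1.503 ± 0.44 (adjusted p = 0.00136), with overlapping values. With loops limited to anchors used by both groups its change was 0.54 and not called (adjusted p = 0.281). At Rxrg the anchor of the Rxrg-001 start (chr1:169527633-169529899, exon) held 54 bulk read pairs, and anchors in the gene (chr1:169549884-169551936 and chr1:169553069-169555195) held 39 and 35. All 3 had no double positive read pair.

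Loops were thin: at Rxra 83.9% and at Rxrg 83.8% of bulk loops had 1 read pair, and at Rarg 74.2%. Only 16 of the 1028 loops passed the filter, 9 at Rara, 6 at Rxrb and 1 at Rarb. By edgeR 8 of these were higher in double positive libraries, 3 lower and 5 not called, beside 38.1% higher and 22.4% lower of 5369 loops tested. The median log2 fold change of those loops was 0.78. With library size alone 14 of the 16 were higher and 1 lower, beside 76.9% and 13.8% of all loops tested, whose median was then 2.99. Of the loops described below, those of the Rara intronic anchor and those to Cdc6 and H2-K1 passed the filter through double positive read pairs. The Rarb loop and the loop to Gjd3 passed it through bulk ones. For all of these the filter itself favoured a call towards that group.

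**Figure D4:**
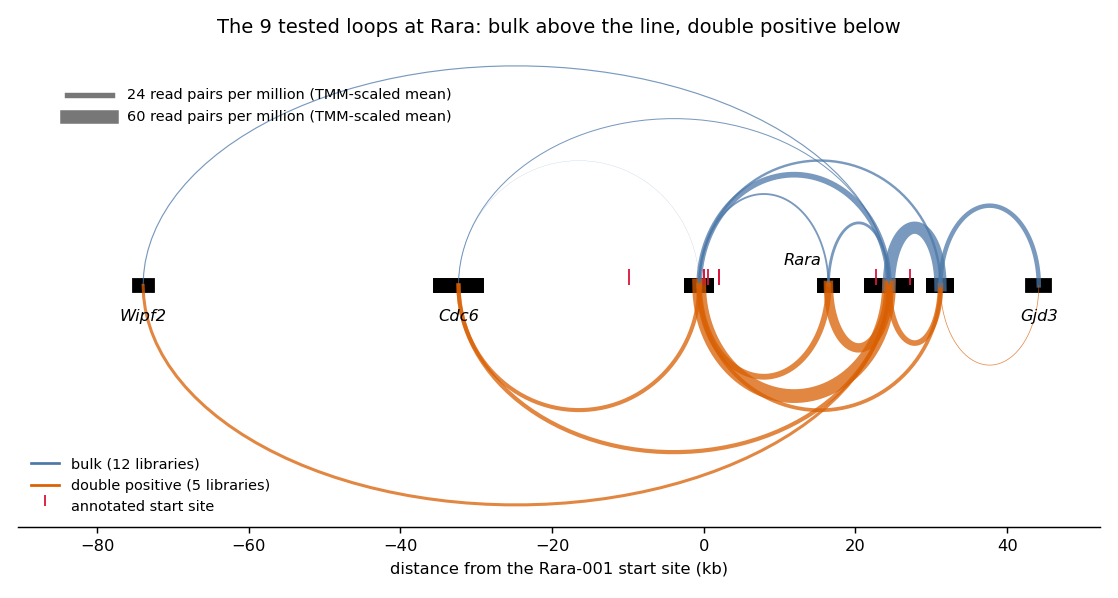
The 9 tested loops with an anchor at Rara, drawn by distance from the Rara-001 start site (x axis, kb). Black boxes are anchors, red ticks are annotated start sites, arcs above the line are bulk and below it double positive, and line width is in proportion to mean CPM; arc height carries no value. Double positive arcs are thicker between the upstream starts, the intron and Rara-004, and towards Cdc6, and thinner between the last Rara anchors and Gjd3, falls that did not hold with library size alone.

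At Rara 5 loops rose and 2 fell. The loop between the upstream starts and the Rara-004 anchor, spanning 25.0 kb, had 4, 5, 5, 2, 1, 2, 3, 2, 2, 0, 1 and 0 read pairs in bulk libraries 1 to 12 and 22, 18, 12, 5 and 23 in double positive libraries. It rose from 25.3 ± 15.5 to 61.1 ± 19.4 CPM (log2 fold change 1.15 ± 0.38, edgeR adjusted p = 0.00602), and the groups overlapped. Among loops with at least 50 read pairs its change was 0.68 and not called (adjusted p = 0.115). The loops of the intronic anchor with Rara-004 (51 double positive and 13 bulk read pairs; 1.55 ± 0.46, adjusted p = 0.00220) and with the upstream starts (37 and 10; 1.39 ± 0.51, adjusted p = 0.0135) rose too. The latter lost its call without double positive library 1 (1.13, adjusted p = 0.0804) or 5 (1.20, adjusted p = 0.0565). Higher too were the loops to the anchor of Cdc6, the neighbouring gene for a DNA replication licensing factor. That to the upstream starts had 22 double positive read pairs in 5 libraries and 1 in bulk, with no overlap, and that to Rara-004 had 22 and 4 (1.87 ± 0.66, adjusted p = 0.0096). The loops that fell both used the anchor after Rara-004. That to the Rara-004 anchor fell by 1.20 (35 double positive and 64 bulk read pairs, adjusted p = 0.00353), though with library size alone it was 1.10 higher (adjusted p = 0.00554). That to Gjd3, a gap junction gene, fell by 2.21 (5 and 21 read pairs, adjusted p = 0.00127), and with library size alone it was -0.081 (adjusted p = 0.914), so that neither fall held under that scaling. The loop from the upstream starts to the anchor after Rara-004 (19 and 11; 0.41 ± 0.57) and that to Wipf2 (16 and 5; 1.16 ± 0.63, adjusted p = 0.0966) did not pass. Loops between anchors of the Rara windows took 35.3% of the gene's read pairs in double positive libraries (32.6 to 38.3% in single libraries), against 29.1% in bulk (20.6 to 36.5%).

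At Rxrb 3 loops were called higher. The loop between its 2 upstream anchors, spanning 5.29 kb, had 44, 31, 13, 23 and 36 double positive read pairs and 30 over the bulk libraries. It rose from 27.5 ± 21.4 to 113 ± 20.8 CPM (1.89 ± 0.36, edgeR adjusted p = 7.9e-07), with no overlap. The other loops called higher led to H2-K1, a class I histocompatibility gene. That from the upstream anchor had 29 double positive and 2 bulk read pairs, of which libraries 1 and 5 gave 13 and 12 (adjusted p = 1.7e-04). That from the start-site anchor had 20 double positive read pairs in 5 libraries and 0 in bulk, just the minimum of the filter, and it could not be fitted without any 1 of these libraries. Loops to Brd2, a bromodomain protein gene (20 and 8; 0.95 ± 0.60), to Rps18, Vps52 and B3galt4 (20 and 9; 0.72 ± 0.59) and to Col11a2 (18 and 9; 0.62 ± 0.60) did not pass the test. H2-K1 has close relatives in this region, and reads shared with them could be placed at either.

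Rarb loops in bulk ran from the Rarb-202 anchor to places without a start site. The strongest joined it to chr14:17418401-17421546, 12.3 kb upstream in an intron of the long isoforms, with 22 read pairs in 9 bulk libraries (edgeR adjusted p = 1.5e-07, 0 in double positive). Further partners lay 139 kb (17 read pairs), 269 kb (12), 159 kb (11) and 515 kb (9) away. The partner at 139 kb is the anchor that double positive loops also used. Of the bulk Rarb read pairs, 42.5% went to other anchors in its own gene, 47.1% to anchors without a promoter and 4.62% to promoters of other genes. Promoters of other genes took 43.4% of the bulk read pairs at Rara and 61.1% at Rxrb.

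The strongest Rarg loops led to promoters: to Map3k12 and Tarbp2, 272 kb away, with 8 double positive and 1 bulk read pairs, to Zfp740 with 6 and 2, to Gm17671 with 5 and 0, to Csad with 3 and 2 and to Tenc1 with 2 and 2. No Rarg loop passed the filter. Promoters of other genes took 81.5% of double positive and 70.0% of bulk read pairs at Rarg. At Rxra no loop had over 4 read pairs; in double positive libraries the only loop with over 1 joined the Rxra-001 anchor to that of Surf4 and Gm711, 743 kb away, with 2. The Rxrg loop with most read pairs, 4 in bulk, spanned 9.55 kb, and 82.1% of the Rxrg read pairs went to anchors without a promoter.

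Spans were compared by the share of read pairs in loops over 100 kb in each library. The share was 50.5% ± 11.6 (SD, n = 12) in bulk and 36.9% ± 7.73 (n = 5) in double positive libraries at Rxrb, a difference of -13.7 percentage points (two-sided exact permutation test, p = 0.0339, adjusted p = 0.0849 over 4 receptors). At Rara it was 44.6% ± 5.52 and 38.9% ± 4.88 (exact permutation p = 0.0637, adjusted p = 0.0849). At Rarg it was 51.7% ± 35.8 and 73.5% ± 18.7 (exact permutation p = 0.219, adjusted p = 0.219). At Rxra it was 68.3% ± 21.4 in bulk and 100% in the 3 double positive libraries with a read pair (exact permutation p = 0.0440, adjusted p = 0.0849), on 6 read pairs. None passed after adjustment; without double positive library 1 the Rara difference did (-7.76 points, exact permutation, adjusted p = 0.0220). Rarb and Rxrg had long loops in bulk, 70.3% ± 10.8 and 76.7% ± 12.6 of read pairs over 100 kb (n = 12), and no double positive value.

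The other genes of the pathway were read from 4 lists, whose medians stayed the same with genes without a double positive read pair set at 3 read pairs over that group. Of 14 tested genes for making, breaking down and carrying retinoids, 2 were higher and 6 lower by edgeR (14.3% and 42.9%, beside 20.6% and 42.8% of all genes; median log2 fold change -0.60, against -0.52 over all genes). Stra6, the membrane receptor that takes up retinol, rose by 1.99 ± 0.17 (224 bulk and 784 double positive read pairs, adjusted p = 7.0e-12), and Rbp4, the retinol carrier of blood, by 1.68 ± 0.44. Fabp5, a fatty acid binding protein that can deliver retinoic acid, fell (-3.81), as did Dhrs3, a retinal reductase (-1.73). Crabp1 and Crabp2, the retinoic acid binding proteins of the cytosol, fell too (-2.65 and -2.07), and Lrat, which esterifies retinol, had 20 bulk and 0 double positive read pairs. The retinoic acid hydroxylases gave values near 0, above the median of all genes. Over genes with a double positive read pair that median was -0.0052. The hydroxylase values were Cyp26a1 0.16 ± 0.22, Cyp26b1 -0.19 ± 0.25 and Cyp26c1 0.49 ± 0.22 (edgeR adjusted p = 0.0536), none past the test. Aldh1a2, the main embryonic enzyme of retinoic acid synthesis, was -0.79 ± 0.56. Aldh1a1 and Aldh1a3 were too sparse for the test, with 5 and 17 bulk and 0 double positive read pairs.

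Of 15 coregulators 2 were higher and 6 lower, or 13.3% and 40% beside 20.6% and 42.8% of all genes (median -0.27 against -0.52), which is near the background. Ncoa3, a coactivator of the p160 family, fell by 3.23 (678 bulk and 61 double positive read pairs, edgeR adjusted p = 1.6e-13). Its relatives Ncoa2 (126 bulk) and Ncoa1 (28 bulk) had no double positive read pair and passed the filter through bulk alone. Ncoa3 lies on distal chromosome 2, from 150 Mb on, where 84.6% of 384 tested genes were called lower. The corepressor gene Ncor1 fell (-0.91). Sin3a, a corepressor scaffold, rose by 1.44 and Carm1, a methyltransferase of coactivators, by 0.75; Ep300 (0.28 ± 0.33) and Crebbp (0.13 ± 0.37), the acetyltransferases, did not pass. Of 9 tested nuclear receptors that share RXR as partner, 4 were higher and 3 lower (44.4% and 33.3%, beside 20.6% and 42.8% of all genes; median 0.57). The list had 13 genes. Ppara, Pparg, Nr1h4 and Nr1i2 were too sparse for the test, with 16, 10, 9 and 3 bulk and 0 double positive read pairs. Nr1h2 and Nr1h3, which encode the oxysterol receptors LXRβ and LXRα, rose by 1.64 and 0.66, the thyroid hormone receptor gene Thra by 1.03 and Nr4a2 by 0.91. Vdr (41 bulk read pairs) and Thrb (35) had none in double positive libraries, and Nr1i3 fell by 1.38; it too lies on distal chromosome 1.

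Of 18 known direct RAR targets, with Rarb among them, 2 were higher and 12 lower (11.1% and 66.7%, beside 20.6% and 42.8% of all genes; median -1.97). Hoxd4 fell by 3.37 (684 bulk and 52 double positive read pairs, edgeR adjusted p = 1.1e-12), and Meis2 (-3.01), Hoxb1 (-2.63), Meis1 (-1.88) and Hoxa4 (-1.21) fell, genes of axial and hindbrain patterning. Tgm2 and Cdx1 had 104 and 28 bulk read pairs and 0 in double positive libraries; Tgm2 too lies on distal chromosome 2. Stra6 and Stra8 (1.94 ± 0.31) rose. Nrip1 (-0.08) and Foxa1 (0.41) did not pass. The 5 tested neural marker genes were lower in the same libraries (log2 fold change -5.15 to -3.17), and their part in these values was not tested.

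**Figure D5:**
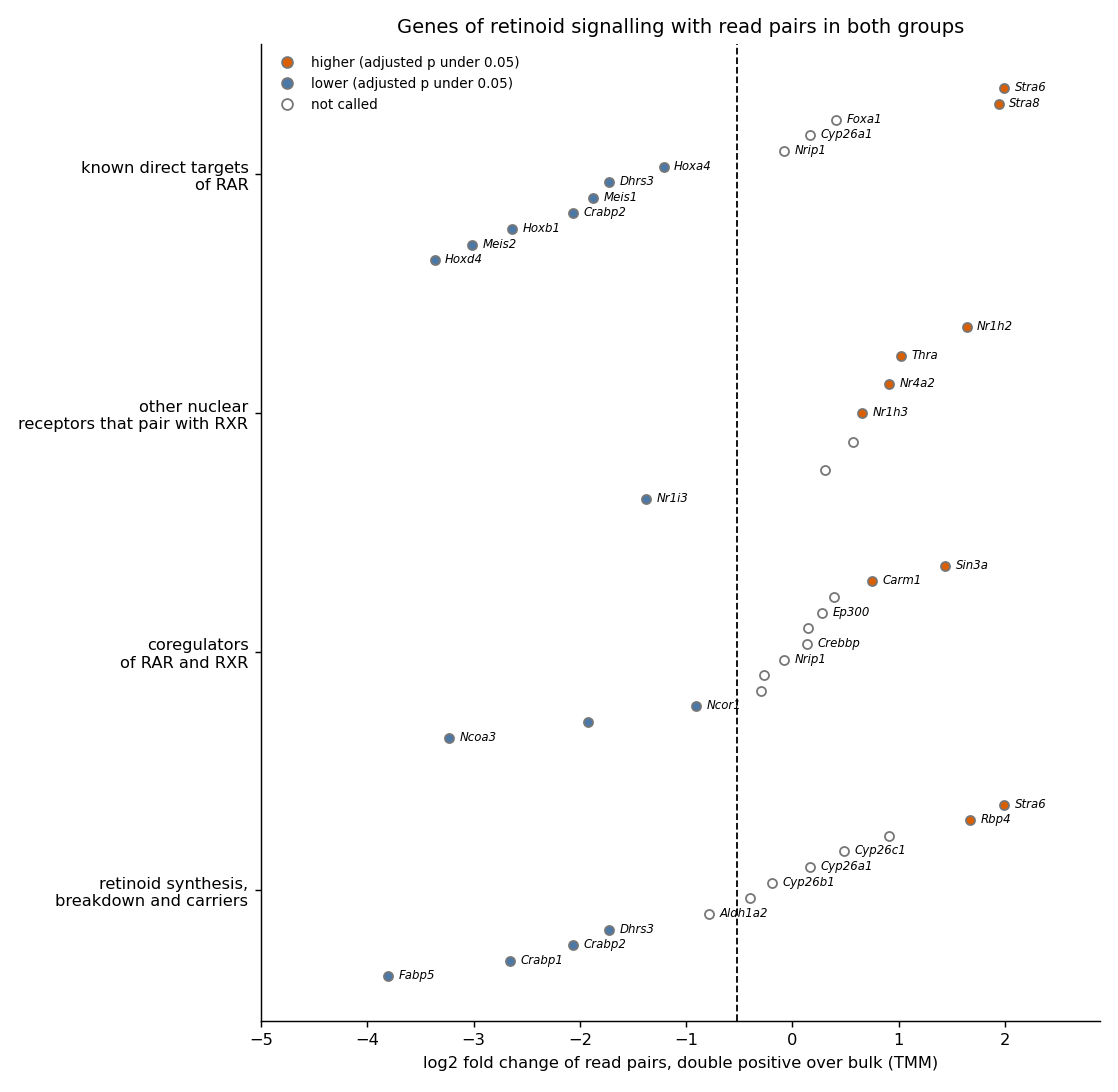
Log2 fold change of read pairs per gene (x axis, double positive over bulk, TMM-scaled) for the reported genes of 4 lists with read pairs in both groups, with those named in the text labelled, ordered by value within a list; orange is higher, blue lower and white not called, and the dashed line is the median of all genes, -0.52. Most direct targets lie left of the line, Stra6 and Stra8 far right of it. The line includes genes without a double positive read pair, and over genes with one the median was -0.0052.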

How the data were processed

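The authors aligned H3K27ac HiChIP reads to mm9 with HiC-Pro, per the labels, and called anchors and loops with hichipper, per the study's methods. The deposited values are counts, whole numbers of read pairs per loop in each library, without normalization. Loops without any read pair do not appear. Anchors that overlap between libraries were joined (216081 from 218663; 700 read pairs within a joined anchor were dropped). All anchor edges lay within 6 bases of a GATC, the MboI site, in the mm9 reference. Start sites came from GENCODE vM1. Members, lists and tests were chosen with earlier results of these data known.

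Genes, anchors and loops with at least 20 read pairs and at least 5 libraries with one were fitted over all features with edgeR 4.0.16 (R 4.3.3, TMM, quasi-likelihood, adjusted p under 0.05). SE is the log2 fold change divided by the root of the F statistic. Gene, anchor and loop tables were scaled separately. Shares used scipy 1.17.1 and Benjamini-Hochberg adjustment over the receptors; libraries without a read pair were left out. Alternatives were DESeq2 1.42.0, library size, TMMwsp, filters, windows, spans, thinning, shared anchors, regions left out, replicate block and libraries left out. Named loops were the 5 with most read pairs per gene plus all tested; likeness took the 2 nearest genes, and up to 3 list genes per direction were named by p, with further ones chosen after their values were seen. Pairs of libraries of a group differed by more than counting noise (chi-square per degree of freedom 1.38 to 3.67 in bulk, 1.08 to 1.19 in double positive). Whether libraries of a group come from separate cultures is not given, so p-values measure the spread between these libraries. Read pairs carry no molecular identifier. Some list genes enter the counts and medians but are not reported here.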

Additional observations from a re-analysis of the deposited data

Results flagged for a closer look

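Among 28 sets of 5 double positive values at the receptors (genes, tested anchors and tested loops), 1 held a value far from the others, where chance flags about 1 in 20. The loop between the start-site anchor of Rxrb and its upstream neighbour had 77.0 CPM in double positive library 3, the lowest of the 5, and its gap to the next value was 0.775 of the range. That value was still above the highest bulk value, 68.0.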

How the results depend on the processing

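At the gene level 5 of the 6 receptors were called, and the count was 4 to 6 in every alternative that could fit at least 5 receptors. Where Rarb and Rxrg were fitted, these counts include them without any double positive read pair. With shared anchors only, 3 receptors could be fitted and 1 was called, Rxrb (0.84, edgeR adjusted p = 5.2e-04; Rarg 1.01, adjusted p = 0.0518). With the single bulk library that has 500 loops of over 5 read pairs as deposited (after anchors were joined bulk library 3 has them too, 537, a set that was not fitted), 3 could be fitted and 1 was called; the lone bulk library is then taken to vary as the double positive ones do. Rara turned to -0.049 with a window of 2.5 kb and to -0.21 with that single bulk library, in neither case past the test. Rarg lost its call also in thinned libraries (0.89, adjusted p = 0.102). Leaving out each double positive library gave 4 to 5 receptors called. Replicate numbers were shared by the groups but did not pair them, as deviations of same-numbered libraries correlated by -0.0206 to 0.00867; with the replicate block 5 receptors were called, as without it.

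Of the 18 tested anchors 17 were called. With at least 50 read pairs 10 of 11 were, as fewer anchors could be fitted. With shared anchors 6 of 8 were, as fewer could be fitted and the Rxrb anchor shared with Col11a2 lost its call (0.54); without 1 double positive library 17 to 18 were. With library size alone the Rara anchor after Rara-004 turned to 0.73. Of the 16 tested loops 11 were called; with library size alone 15 were, 14 of them higher. With at least 50 read pairs 3 of 4 were, the loop between the upstream Rara starts and Rara-004 losing its call (0.68). Without 1 double positive library 7 to 10 were, as 12 to 14 passed the filter and, without library 1 or 5, the loop between the upstream Rara starts and the intron lost its call. The loop from that anchor to Rara-004 turned to 1.10 with library size alone, and that to Gjd3 (-0.081) and the Rxra-001 anchor (-0.17) lost their calls. No share over 100 kb passed, and without 1 double positive library 0 to 1 did. Of the genes, 3058 of 14115 had no double positive read pair. No fold is given for such genes, as loop lists do not show whether their anchors were offered to double positive libraries.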
